A study of Mus musculus with 23 samples.

Results

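Cells labelled as group 2 innate lymphoid cells (ILC2s) were recovered from mouse blood on day 1 and on day 5 after experimental stroke, and 6 day 5 libraries were compared with 6 day 1 libraries, 12 of the 23 libraries of the series. Members were taken by their labels alone (blood, day 1 or day 5), and the comparison used log2(normalized count + 1) with the labelled batch in the model. All 12 libraries share one history. The donors were male mice of 8-10 weeks, transgenic and wild-type, with the genotype given as B6.Cg-Tg(CAG-GFP)Smoc, and they received IL-33 to expand ILC2s. Lineage-negative CD25+ cells of bone marrow and spleen were cultured for 14 days with 4 cytokines (IL-7, IL-33, IL-2 and IL-15) and sorted as CD45+Lin-ST2+KLRG1+CD127+. They were given intravenously 6 hours after middle cerebral artery occlusion (MCAO, which blocks a main artery of the brain to model stroke). The sources used here do not state how transferred cells were separated from the host's own blood cells at recovery. They also do not state whether each replicate is a separate animal, so p-values measure only the spread between these libraries. Each group has 3 libraries in batch 1 (replicates 1, 2 and 3) and 3 in batch 2 (replicates 4, 5 and 6).

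ILC2s are lymphocytes without antigen receptors that depend on GATA3, respond to IL-33 through ST2 (Il1rl1) and secrete IL-5 and IL-13. Most live in tissue, and few are found in blood under resting conditions. Immediate early genes such as Fos and Junb are transcribed within minutes of a stimulus without new protein synthesis, and NF-kB drives inflammatory genes such as Il1b and Cxcl2 together with their own brakes, such as Tnfaip3.

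Depth recovered from the table was 12.1 M to 16.8 M in the batch 1 blood libraries and 27.8 M to 44.0 M in batch 2 (M, 1e6 reads). Day 1 replicates 2 and 6 stood apart from the rest. Their median correlation with their own group (log2 values across genes) was 0.714 and 0.745, against 0.846 to 0.875 in the other 10 libraries, and 11150 and 11295 genes had a read, against 13356 to 15464. Replicate 2 also had a normalized total of 45.5 M, against 16.9 M to 20.8 M in the others, and 7.46% of it came from 18 platelet genes. Both stayed in the comparison, and counts of calls are also given without them.

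The labelled cell type was checked against 26 ILC2 genes, of which some are given here. Klrg1, a receptor used in the sort, was present in every library, at 2181.6 to 10246 (median 6861) on day 1 and 4367 to 22019.9 (median 7545) on day 5. Gata3 had 591 to 2357 (median 1198) on day 1 and 1269.8 to 1895 (median 1597) on day 5. Il1rl1, which encodes ST2, had 0 to 303 (median 142) and 47.2 to 232 (median 115). Culture libraries had 15664 to 50175 for Klrg1, 139 to 534 for Gata3 and 0 to 5.42 for Il1rl1. Further members went both ways between culture and blood. Il2ra (CD25) had 40.2 to 335 on day 1, 74.8 to 176 on day 5 and 13451 to 21066.5 in culture. Thy1 had 430 to 2490, 286 to 3304 and 13316 to 33703. Il7r (CD127) had 370 to 2456, 1159.5 to 3131 and 0 to 75.8. Rora had 46.4 to 1987, 600 to 1772 and 14.9 to 153. Other ILC2 genes were at or near 0: Ptgdr2, the prostaglandin D2 receptor CRTH2, had 0 to 38.3 on day 1 and 0 to 1.65 on day 5, and Il5 had 0 to 1.31 and 0 to 13.8. Ptgdr2 and Il5 were too low to be tested.

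The same libraries held transcripts that ILC2s are not known for. Ncr1, a receptor of NK cells and group 1 innate lymphoid cells, had 10260.3 to 20326 (median 14852) on day 1 and 8646 to 32451 (median 14392) on day 5. Cd79a, part of the B cell receptor, had 8486 to 23178 (median 18508) and 9888 to 43609 (median 31664). Hba-a1, an alpha globin of red cells, had 128910.0 to 1419170.0 (median 270671) and 41015 to 628196 (median 147998). Markers of platelets, red cells, B cells and neutrophils were present in all 12 libraries, so each library is a mixture as far as its RNA shows. T cell and NK cell markers were present too, but the culture libraries had mostly larger shares. T cell markers took 0.53% to 1.33% in culture, against 0.241% to 0.548% in blood on day 1 and 0.289% to 0.469% on day 5. NK cell markers took 2.16% to 8.36% in culture, against 0.305% to 1.26% on day 1 and 0.701% to 2.44% on day 5. Members of both lists went both ways. On the NK list, Gzma was at least 388455 in culture and at most 332679 in blood. Ncr1 was 0 to 12.2 in culture, and Klrd1 was 19.8 to 1789 in culture and 2658 to 13618 in blood. On the T cell list, Cd3g was 45714 to 221732 in culture and 3100 to 13069 in blood. Cd4 was 0 to 25.3 and 492 to 2866, and Cd8a 258 to 400 and 1872 to 6638. In such bulk samples fewer cells of a type and less RNA per cell cannot be told apart.

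**Figure D1:**
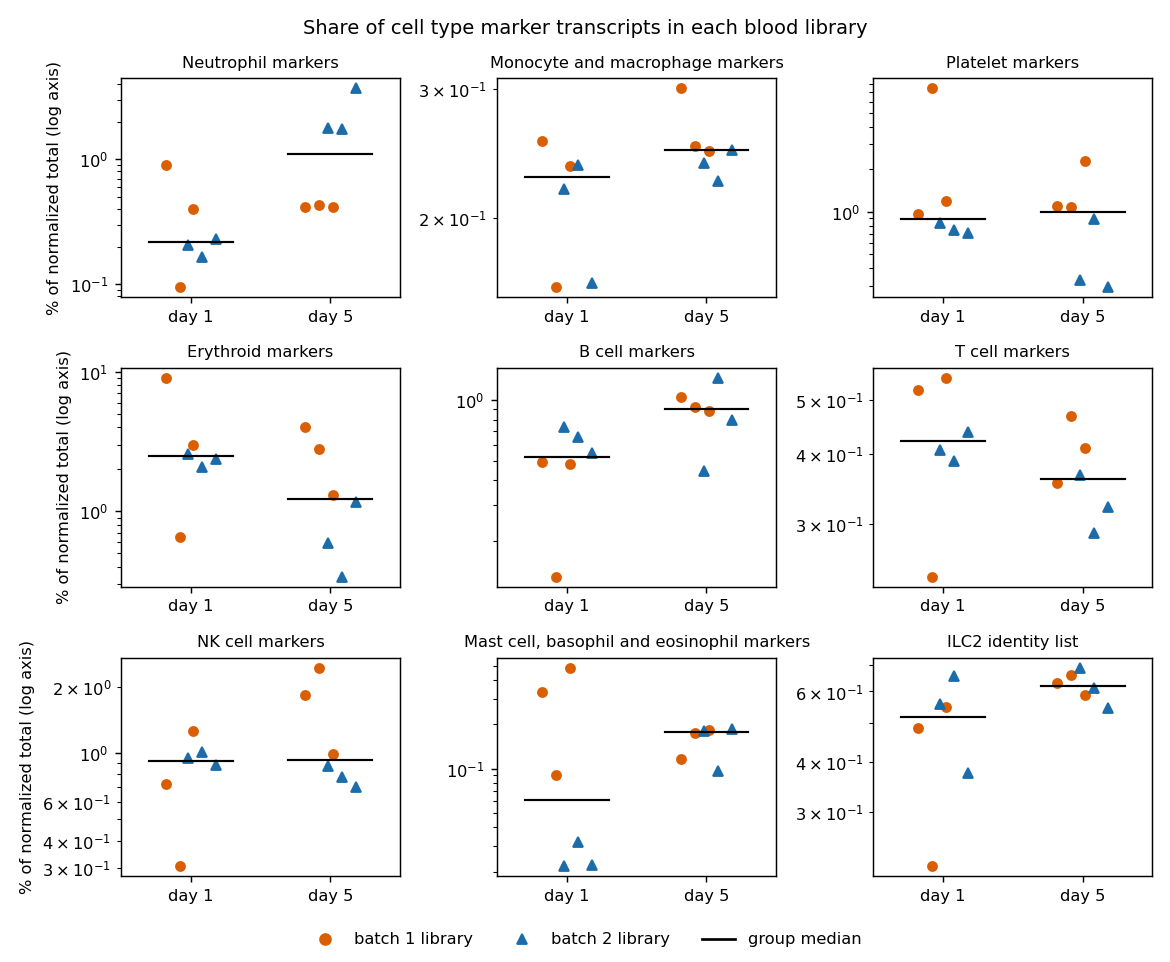
Share of each library's normalized total (percent, log axis) taken by marker genes of 8 blood cell types and by the ILC2 identity list, for the 6 day 1 and 6 day 5 libraries. Circles are batch 1, triangles are batch 2 and bars are group medians; the neutrophil share of batch 2 is 0.166% to 0.229% on day 1 and 1.76% to 3.70% on day 5, while the batch 1 libraries of both days overlap.

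Neutrophil markers showed the widest gap between the days, and only in batch 2 did the days separate. The 20 of 22 neutrophil genes in the table made up 0.0945% to 0.907% of a library on day 1 and 0.413% to 3.70% on day 5. In batch 1 the shares were 0.0945% to 0.907% on day 1 and 0.413% to 0.429% on day 5, which overlap. In batch 2 they were 0.166% to 0.229% and 1.76% to 3.70%, which do not. The B cell list took 0.132% to 0.737% on day 1 (median 0.519%) and 0.446% to 1.29% on day 5 (median 0.905%). Its shares separated the days in batch 1 (0.132% to 0.492% and 0.881% to 1.03%) and overlapped in batch 2 (0.546% to 0.737% and 0.446% to 1.29%). Red cell genes overlapped in batch 1 (0.657% to 9.02% on day 1 and 1.30% to 3.996% on day 5) and were lower on day 5 in batch 2 (2.07% to 2.57% and 0.338% to 1.16%). Of 16 red cell genes tested, none was called. At an unadjusted p under 0.05, 5 were lower (5.63% over all genes). Without day 1 replicates 2 and 6 there were 9, and no share over all genes was taken at that threshold in that fit. The list medians were 0.11 in batch 1 and -1.90 in batch 2. The ILC2 list took 0.219% to 0.655% on day 1 and 0.546% to 0.688% on day 5.

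Between day 1 and day 5, 11 genes rose and 1 fell. The fitted fold was highest for the chemokine gene Cxcl2 (173-fold) and the metalloreductase gene Steap4 (123-fold), both low on day 1 (3 libraries and 1 library at 0), so that the pseudocount bears on these folds. The cytokine gene Il1b was 22.95-fold higher, the phosphatase gene Dusp1 14.9-fold, the receptor genes Cd14 and Csf3r 7.74-fold and 7.42-fold, and the transcription factor gene Fos 5.09-fold. The other 4 were Tnfaip3, Junb, Irs2 and Zfp36l2, and the gene that fell was Manf. These 12 genes are 0.102% of the 11813 tested (limma on log2(normalized count + 1), Benjamini-Hochberg adjusted p under 0.05), 0.0931% higher and 0.00847% lower. All 12 had the same sign in both batches. At an unadjusted p under 0.05 there were 850 genes higher (7.2%) and 665 lower (5.63%), and the median log2 difference over all genes tested was 0.16.

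The number of calls depended on single libraries. Without day 1 replicates 2 and 6, 148 genes were higher and 63 lower (1.25% and 0.533% of those tested, 1.79% together), and all 12 genes were among them. Leaving out day 1 replicate 6 alone gave 26 higher and 3 lower, and leaving out day 1 replicate 2 alone gave 16 and 1. Leaving out day 1 replicate 1, 3, 4 or 5 gave 6, 3, 4 and 4 higher, and leaving out day 5 replicates 1 to 6 in turn gave 3, 6, 4, 3, 6 and 4. Il1b, Dusp1 and Fos were called in all 12 of these fits. edgeR on the recovered reads called 3 higher (0.0254% of those tested) and 0 lower, with 1369 genes at an unadjusted p under 0.05. DESeq2 called 170 higher and 198 lower (2.03% and 2.37%, 4.4% together), limma with library quality weights 762 and 461 (6.45% and 3.9%, 10.4% together), and limma over all 23 libraries 15 higher and 0 lower (0.127%).

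**Figure D2:**
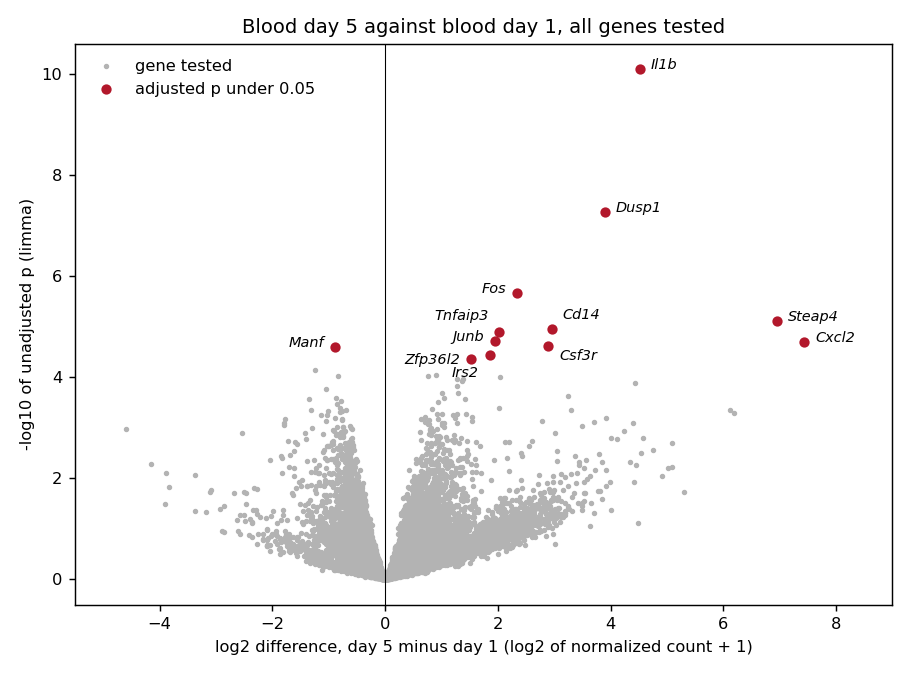
Log2 difference between blood day 5 and blood day 1 (x axis, positive is higher on day 5) against -log10 of the unadjusted limma p (y axis) for the 11813 genes tested. The 12 genes with an adjusted p under 0.05 are filled and named; 11 lie to the right of 0, and Manf lies at -0.89.

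Il1b (chr2:129364570-129371139, mm10, minus strand) encodes interleukin 1 beta, a fever-inducing cytokine made mostly by activated myeloid cells. Its normalized count on day 1 was 144 at the lowest, 186 at the median and 408 at the highest. On day 5 it was 3063 at the lowest, 4602 at the median and 8606 at the highest. Every day 5 library was above every day 1 library, with no overlap in either batch. The log2 difference was 4.52 (SE 0.22, adjusted p = 9.6e-07), 4.27 in batch 1 and 4.77 in batch 2. The neutrophil shares of the days overlapped in batch 1 and not in batch 2, and the part of neutrophil RNA in the Il1b difference was not tested. Culture libraries had 0 to 67.6 and brain libraries 603 to 1590.1.

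Cxcl2 (chr5:90903871-90905938) encodes a chemokine that draws neutrophils through CXCR2. It had 0 at the lowest, 1.17 at the median and 34.1 at the highest on day 1, with 3 of 6 libraries at 0 and 19 reads in all. On day 5 it had 156 at the lowest, 259 at the median and 2553 at the highest, and the groups did not overlap. Day 5 replicates 4 and 6 were high, at 2099.6 and 2553. The fitted log2 difference of 7.43 (SE 1.11, adjusted p = 0.0292) depends on the pseudocount of 1, since the day 1 level is near 0.

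Steap4 (chr5:7960457-7982213), a metalloreductase gene induced in inflammation, had 0 at the lowest, 8.98 at the median and 55.2 at the highest on day 1. On day 5 it had 272 at the lowest, 1534 at the median and 5464 at the highest. All day 5 libraries were above all day 1 libraries, and the 3 of batch 2 (2745 to 5464) were above the 3 of batch 1 (272 to 323). Its log2 difference was 6.95 (SE 0.94, adjusted p = 0.0229).

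Csf3r (chr4:126024550-126044440) and Cd14 encode surface receptors of myeloid cells, for granulocyte colony-stimulating factor and for bacterial lipopolysaccharide. Csf3r had 487 at the lowest, 978 at the median and 2140.5 at the highest on day 1 and 2404 at the lowest, 8893 at the median and 21445 at the highest on day 5. Cd14 had 144 at the lowest, 294 at the median and 867 at the highest on day 1 and 1078 at the lowest, 2587 at the median and 4778 at the highest on day 5. Neither gene's groups overlapped. Csf3r differed by 2.89 (SE 0.44, adjusted p = 0.0292), with 1.77 in batch 1 and 4.01 in batch 2. Cd14 differed by 2.95 (SE 0.42, adjusted p = 0.0253), with 2.21 and 3.69. Csf3r is one of the 20 neutrophil markers, and the part of neutrophil RNA in these rises was not tested.

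**Figure D3:**
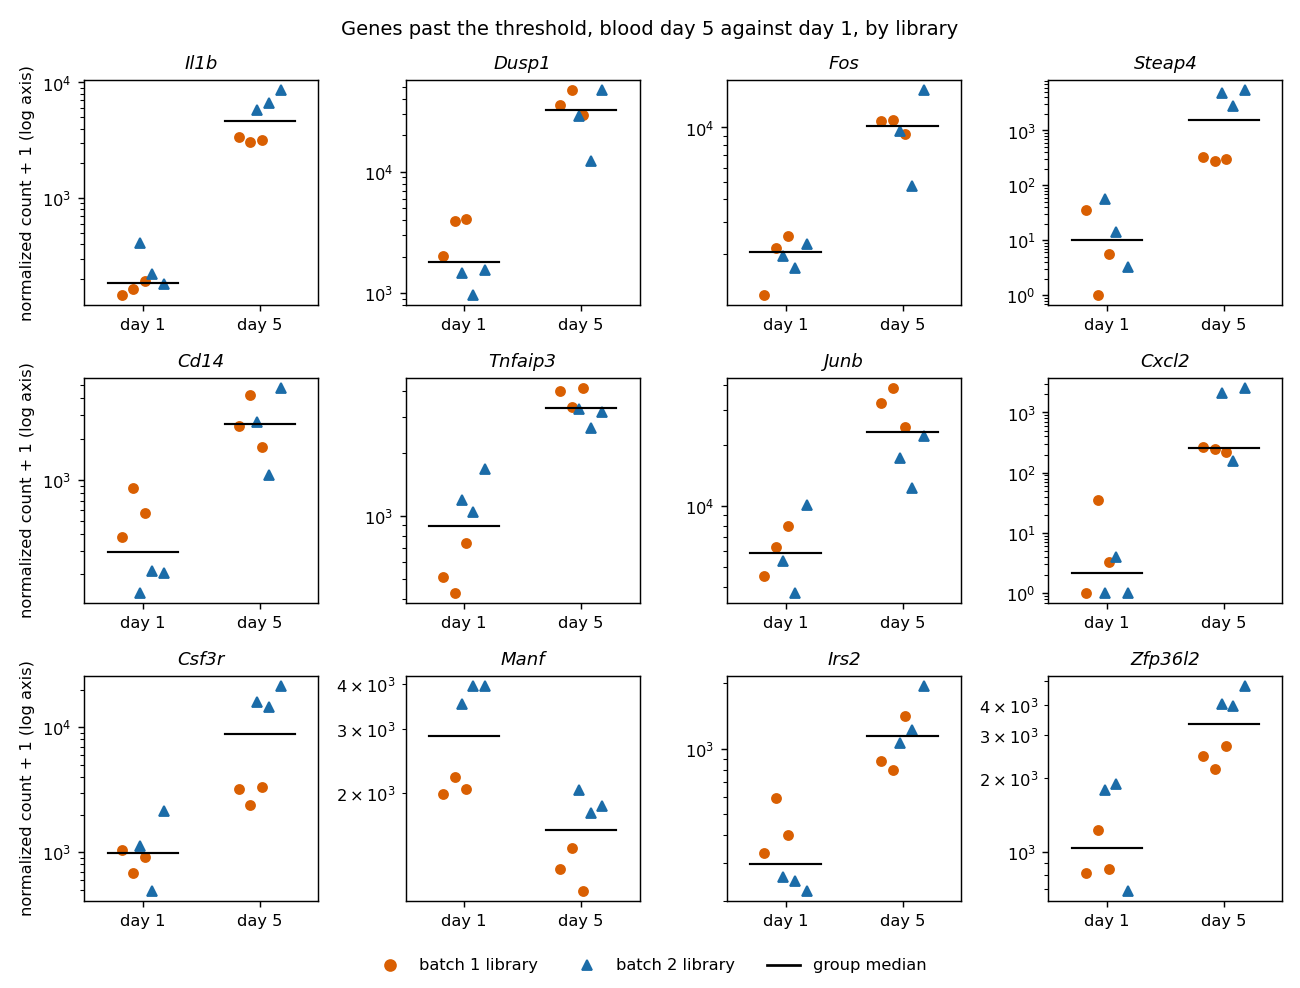
Normalized count + 1 (log axis) of the 12 genes past the threshold in the 6 day 1 and 6 day 5 libraries. Circles are batch 1, triangles are batch 2 and bars are group medians; the days do not overlap in the 11 genes that rose, while for Manf they overlap over both batches together.

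Dusp1 encodes a phosphatase that switches off MAP kinases and is induced both by mitogens and by glucocorticoids. It had 966 at the lowest, 1803 at the median and 4058 at the highest on day 1 and 12216 at the lowest, 32396 at the median and 47072 at the highest on day 5. The groups did not overlap, and day 5 replicate 5 was the lowest of its group. The log2 difference was 3.90 (SE 0.33, adjusted p = 0.000315), 3.51 in batch 1 and 4.29 in batch 2.

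Fos (chr12:85473890-85477273) and Junb (chr8:84974484-84978718) encode partners in the transcription factor AP-1. Fos had 1175 at the lowest, 2044 at the median and 2509.8 at the highest on day 1 and 4768 at the lowest, 10175 at the median and 16136 at the highest on day 5. Junb had 3707 at the lowest, 5832 at the median and 10112 at the highest on day 1 and 12348 at the lowest, 23434 at the median and 38543 at the highest on day 5. Neither overlapped between the days. The log2 difference was 2.35 for Fos (SE 0.28, adjusted p = 0.00839) and 1.94 for Junb (SE 0.29, adjusted p = 0.0292). Culture libraries had 39.98 to 426 for Fos, and brain libraries 34892 to 125048.

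Tnfaip3 (chr10:19000910-19015657) encodes A20, an inhibitor of NF-kB signalling. It had 424 at the lowest, 894 at the median and 1682 at the highest on day 1 and 2661 at the lowest, 3318 at the median and 4129 at the highest on day 5, without overlap. Its log2 difference was 2.02 (SE 0.29, adjusted p = 0.0253), 2.81 in batch 1 and 1.24 in batch 2.

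Zfp36l2 (chr17:84183931-84187947), an RNA-binding protein gene whose product speeds the decay of AU-rich messages, had 687 to 1885 (median 1037) on day 1 and 2185 to 4787 (median 3329) on day 5. Irs2 (chr8:10984681-11008458), an adaptor of insulin and cytokine receptors, had 221 to 594 (median 293) and 798 to 1936 (median 1137). Both were separated between the days, by 1.52 (SE 0.25, adjusted p = 0.0422) and 1.85 (SE 0.29, adjusted p = 0.0395).

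Manf (chr9:106838312-106891979), an endoplasmic reticulum protein induced when unfolded proteins accumulate, was the gene that fell. It had 1977 at the lowest, 2867 at the median and 3939.6 at the highest on day 1 and 1069 at the lowest, 1580.0 at the median and 2030.2 at the highest on day 5. Over all 12 libraries the days overlapped, and batch 2 was higher than batch 1 on both days. Within batch 1 the ranges were 1977 to 2214 and 1069 to 1407, and within batch 2 3521 to 3939.6 and 1753 to 2030.2, without overlap. Manf fell by 0.89 on the log2 scale (SE 0.14, adjusted p = 0.0292). With equal library totals in place of the deposited scaling its adjusted p was 0.354.

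Non-overlap alone was found in 87 genes higher on day 5 (0.736% of those tested) and 79 lower (0.669%), and all 11 genes that rose were among the 87. Apart from Il1b, Dusp1 and Fos, each called gene lost its call when some single libraries were left out, in 7 to 10 of the 12 fits. The highest adjusted p among those fits was 0.10 to 0.165, and the direction stayed the same in all 30 alternatives run for each of the 12 genes. Without day 1 replicates 2 and 6 the adjusted p was 2.54e-07 for Il1b, 0.0012 for Cxcl2 and 0.0227 for Csf3r.

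Promoters are shown for 5 genes that rose, each with a motif match, and not for the others. Each line holds the 250 bases before the transcription start in RefSeq (GRCm38.p6, mm10), 5′ to 3′ on the gene's strand, and capitals mark motif matches on either strand.
Il1b (chr2:129371140-129371389, minus strand): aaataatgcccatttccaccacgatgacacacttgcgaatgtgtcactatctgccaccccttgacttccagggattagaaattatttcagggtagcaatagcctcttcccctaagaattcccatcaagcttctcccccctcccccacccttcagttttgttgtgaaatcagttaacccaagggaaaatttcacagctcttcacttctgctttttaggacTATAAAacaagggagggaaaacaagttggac
Cxcl2 (chr5:90903649-90903898, plus strand): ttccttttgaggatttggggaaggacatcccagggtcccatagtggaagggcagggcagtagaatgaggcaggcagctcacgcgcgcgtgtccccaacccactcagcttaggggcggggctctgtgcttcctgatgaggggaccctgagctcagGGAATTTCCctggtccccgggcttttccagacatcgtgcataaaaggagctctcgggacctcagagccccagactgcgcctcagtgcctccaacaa
Dusp1 (chr17:26508473-26508722, minus strand): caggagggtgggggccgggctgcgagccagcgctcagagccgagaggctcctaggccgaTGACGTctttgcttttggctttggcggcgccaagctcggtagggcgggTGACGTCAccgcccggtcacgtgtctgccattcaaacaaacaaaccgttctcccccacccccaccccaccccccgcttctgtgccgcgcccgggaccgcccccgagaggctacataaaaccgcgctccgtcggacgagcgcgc
Fos (chr12:85473640-85473889, plus strand): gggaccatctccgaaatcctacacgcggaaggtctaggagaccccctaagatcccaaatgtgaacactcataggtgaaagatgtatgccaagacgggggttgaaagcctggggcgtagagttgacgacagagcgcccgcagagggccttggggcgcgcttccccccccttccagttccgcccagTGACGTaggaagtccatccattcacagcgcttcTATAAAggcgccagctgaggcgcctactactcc
Tnfaip3 (chr10:19015411-19015660, minus strand): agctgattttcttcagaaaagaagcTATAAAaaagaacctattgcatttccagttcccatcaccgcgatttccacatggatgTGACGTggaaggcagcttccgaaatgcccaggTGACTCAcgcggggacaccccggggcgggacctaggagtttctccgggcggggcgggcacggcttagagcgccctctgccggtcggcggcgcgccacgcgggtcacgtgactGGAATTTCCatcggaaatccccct

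Tnfaip3 has 2 starts in the table, and the promoter shown is that of the upstream start. The other start had no match. A set of 5 motifs was searched on both strands, and promoters were in the table for 9 of the 11 genes that rose. Those of Csf3r, Junb and Irs2 had no match. The core of the cAMP response element, TGACGT, was found in Dusp1, Fos and Tnfaip3, and in 6.469% of all 32851 promoters of this length. In Dusp1 a pair of its matches overlap, being the same palindromic stretch read on both strands. The NF-kB motif was written GGANTTTCC. It was found in Cxcl2, 96 to 88 bases before the start, and in Tnfaip3, 24 to 16 bases before it, and in 1.065% of all promoters. The AP-1 motif was written TGANTCA and was found in Tnfaip3 and in 6.749% of all promoters. The TATA box was searched as TATAAA, and its letters were found in Il1b, Fos, Steap4 and Tnfaip3, and in 12.37% of all promoters. The match lay 31 to 26 bases before the start in Il1b and 33 to 28 in Fos. It lay farther away in Steap4 (215 to 210) and Tnfaip3 (225 to 220). The C/EBP motif, TTGCNNAA, was found in Steap4 and in 9.564% of all promoters.

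The immediate early and NF-kB list, its 5 called genes included, had mostly higher values on day 5. Of its 36 tested genes, 5 rose (Dusp1, Fos, Tnfaip3, Junb and Zfp36l2) and none fell, against 0.0931% and 0.00847% over all genes. At an unadjusted p under 0.05, 22 were higher and 0 lower (7.2% and 5.63% over all genes). The median log2 difference was 1.02, against 0.16 over all genes. Dusp2 had 1966 to 5564 (median 3079.6) on day 1 and 6524 to 11830.3 (median 8152) on day 5, and Zfp36 had 2788 to 4829.7 (median 3751) on day 1 and 5481 to 16626 (median 9946) on day 5, both without overlap. Dusp2, a phosphatase of nuclear MAP kinases, had adjusted p = 0.0682, and Zfp36, which like Zfp36l2 speeds mRNA decay, 0.071. Nfkbia had 4471 to 5800.2 (median 4963) on day 1 and 4867 to 14175 (median 9420.0) on day 5 (adjusted p = 0.159); it encodes the inhibitor that holds NF-kB in the cytoplasm. Egr1, Nr4a1 and Jun had log2 differences of 1.38, 1.60 and 1.03 and adjusted p of 0.291, 0.238 and 0.189. Without day 1 replicates 2 and 6, 14 of the 36 were called higher (1.25% over all genes). The median was then 0.79, against 0.02 over all genes. The summed list, called genes included, took 0.149% to 0.454% of a library on day 1 and 0.655% to 1.13% on day 5. Tnf, another NF-kB target, had 0 to 235 (median 61.3) on day 1 and 56.8 to 104 (median 70.3) on day 5, with a log2 difference of 1.03 and SE of 1.11 (adjusted p = 0.655).

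Genes induced by glucocorticoids, the adrenal steroids released in stress, were also mostly higher. Of 19 tested, Dusp1 rose (0.0931% called higher over all genes), and it is also on the immediate early list. At an unadjusted p under 0.05, 9 were higher and 0 lower (7.2% and 5.63% over all genes). The median was 0.82, with 0.47 in batch 1 and 1.05 in batch 2. Il1r2 and Lcn2 are also on the neutrophil list, and the part of neutrophil RNA in these values was not tested. With day 1 replicates 2 and 6 left out, 4 were called higher (Dusp1, Cxcr4, Tsc22d3 and Ddit4, against 1.25% over all genes), and the median was 0.55. Tsc22d3 (GILZ), which restrains inflammatory transcription, had 7071 to 35348 (median 17522) on day 1 and 27555 to 39785 (median 32858) on day 5 (adjusted p = 0.159). Per1, a clock gene that glucocorticoids induce, had 0 to 82.5 (median 45.8) and 84.4 to 303 (median 152), without overlap (adjusted p = 0.34). Fkbp5, a co-chaperone of the glucocorticoid receptor, had 1372 to 2870.0 (median 1910.1) and 2243 to 5178 (median 2946) (adjusted p = 0.269). Cxcr4, the receptor for CXCL12 that holds leukocytes in bone marrow, differed by 2.13 (adjusted p = 0.159), and by 1.68 without day 1 replicates 2 and 6 (adjusted p = 0.00603).

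The heat shock and unfolded protein response list had mostly lower values on day 5. Of 23 tested genes Manf fell (0.00847% called lower over all genes). At an unadjusted p under 0.05, 0 were higher and 7 lower (7.2% and 5.63% over all genes). The median was -0.29, against 0.16 over all genes. With equal library totals it was -0.03, where the all-gene median was 0.41. Calr had 8459 to 13939.7 (median 10068) on day 1 and 5427 to 8193 (median 7048) on day 5, and Hspe1 had 688 to 1096 (median 928) on day 1 and 378 to 593 (median 576) on day 5, each with every day 5 library below every day 1 library. Calr encodes calreticulin, a chaperone of the endoplasmic reticulum, and Hspe1 a mitochondrial chaperone (adjusted p = 0.14 and 0.133). Pdia6, a disulfide isomerase, had 6879.6 to 17361 (median 8803) on day 1 and 4506 to 6372 (median 5173) on day 5 (adjusted p = 0.173). Without day 1 replicates 2 and 6, 5 of the 23 were called lower (0.533% over all genes).

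Nuclear genes of oxidative phosphorylation, which encode subunits of the respiratory chain, were lower by small amounts. None of the 68 tested passed the threshold, and 36 were lower and 0 higher at an unadjusted p under 0.05 (665 of 11813, 5.63%, lower over all genes). The median was -0.48, or -0.22 with equal library totals, against 0.16 and 0.41 over all genes. Ndufa12 had 999 to 1824 (median 1331) on day 1 and 487 to 875 (median 635) on day 5, without overlap (adjusted p = 0.0875). Cox7b had 1503 to 3771 (median 2336) on day 1 and 1019 to 1951 (median 1233) on day 5 (adjusted p = 0.132). The medians within batch 1 and batch 2 were -0.50 and -0.49, and -0.27 without day 1 replicates 2 and 6.

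**Figure D4:**
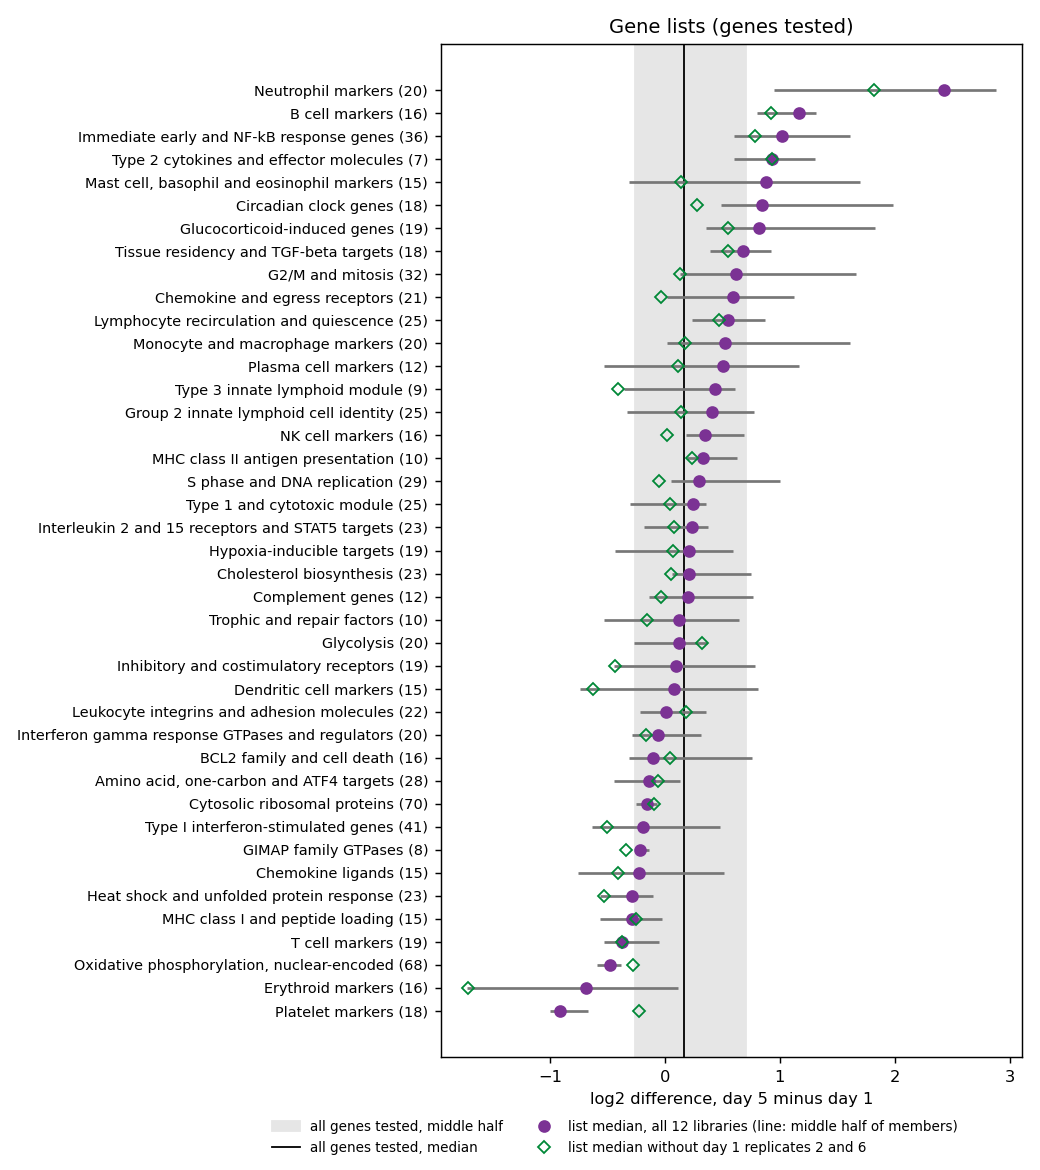
Median log2 difference (day 5 minus day 1) of the tested members of each gene list with 7 or more tested genes, with the number tested in brackets. Filled points use all 12 libraries, and lines span the middle 50% of members. Open diamonds leave out day 1 replicates 2 and 6, and the grey band and line show all genes tested. With all 12 libraries the neutrophil list is highest, at 2.43, and the platelet list lowest, at -0.92. Without day 1 replicates 2 and 6 the neutrophil list is at 1.82, the platelet list at -0.22 and the red cell list at -1.72.

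Genes of lymphocyte recirculation and quiescence were mostly higher, without a call over all 12 libraries. Of 25 tested, 13 were higher and 1 lower at an unadjusted p under 0.05 (7.2% and 5.63% over all genes). The median was 0.55, against 0.16 over all genes. After leaving out day 1 replicates 2 and 6, 4 were called higher (Klf2, Ccr7, Foxo1 and Txnip) and 1 lower (Ms4a6b). The shares over all genes in that fit were 1.25% and 0.533%. Ccr7 had 3806 to 13583 (median 5907) on day 1 and 9689.9 to 17112 (median 14023) on day 5 (log2 difference 1.00, adjusted p = 0.133); it encodes the receptor that guides lymphocytes into lymph nodes. Txnip had 2264 to 7409 (median 5039) on day 1 and 8314 to 21024 (median 12185) on day 5 (adjusted p = 0.133), and Foxo1 had 1285 to 2643 (median 2148) on day 1 and 2818 to 4340.4 (median 3378) on day 5 (adjusted p = 0.14), both without overlap. Foxo1 encodes a transcription factor of resting lymphocytes, and Txnip an inhibitor of glucose uptake. S1pr1, the receptor for leaving tissues into blood, had 5497 to 7029 (median 5628) on day 1 and 6029 to 9043 (median 7461) on day 5 (adjusted p = 0.383). B cells also express several of these genes. Of 16 B cell markers, 12 were higher and 0 lower at an unadjusted p under 0.05 (7.2% and 5.63% over all genes). None was called, and the median was 1.16 (1.65 in batch 1 and 0.63 in batch 2). In the fit without those 2 libraries, 4 of the 16 were called higher (Ebf1, Cd22, Blk and Cr2), against 1.25% over all genes. Cd22, an inhibitory B cell receptor, had 551 to 3236 (median 2205) on day 1 and 3134 to 7093 (median 4151) on day 5 (adjusted p = 0.159). The part of B cell RNA in the recirculation genes was not tested.

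T cell markers were lower on balance, also without a call. Of 19 tested, 9 were lower and 1 higher at an unadjusted p under 0.05 (5.63% and 7.2% over all genes). The median was -0.38, or -0.12 with equal library totals, against 0.16 and 0.41 over all genes. Cd3g, a chain of the T cell receptor complex, had 4644 to 13069 (median 9171) on day 1 and 3099.9 to 8375 (median 4427) on day 5, with a log2 difference of -0.83 (adjusted p = 0.0682). Without day 1 replicates 2 and 6 it was -0.91 (adjusted p = 0.00858). Trac had 4144 to 9586 (median 6359) on day 1 and 2883 to 7079.9 (median 4450.4) on day 5 (adjusted p = 0.291).

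Type I interferon-stimulated genes had 7 lower and 1 higher of 41 tested at an unadjusted p under 0.05 (5.63% and 7.2% over all genes), with no call. The median was -0.19, or 0.06 with equal library totals, against 0.16 and 0.41 over all genes. It was 0.26 in batch 1 and -0.53 in batch 2. With day 1 replicates 2 and 6 left out, 2 were called lower (Isg15 and Bst2), against 0.533% over all genes. In that fit 15 were lower and 2 higher at an unadjusted p under 0.05, for which no share over all genes was taken in that fit. The median was -0.51, against 0.02 over all genes. Bst2, tetherin, had 1461 to 2946 (median 1646) on day 1 and 771 to 1125 (median 979.5) on day 5, without overlap (adjusted p = 0.133). Isg15, a ubiquitin-like protein gene, had 248 to 1949 (median 972) and 144 to 336 (median 234) (log2 difference -1.72, adjusted p = 0.159), with -0.53 in batch 1 and -2.90 in batch 2.

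The genes that define ILC2s and related lymphocytes did not pass the threshold. Of 25 ILC2 identity genes tested, 3 were higher and 1 lower at an unadjusted p under 0.05 (7.2% and 5.63% over all genes). The median was 0.41, against 0.16 over all genes. In the fit without day 1 replicates 2 and 6, none was called and the median was 0.14. At an unadjusted p under 0.05, 5 were higher and 4 lower there, with no share over all genes taken for that fit. Gata3 had a log2 difference of 0.41 (SE 0.29, adjusted p = 0.522) and Il1rl1 of 1.06 (SE 1.21, adjusted p = 0.67), which was -0.74 without day 1 replicates 2 and 6. Ptprc, which encodes CD45, had 6022 to 24992 (median 15894) on day 1 and 22726 to 35034 (median 27264) on day 5 (log2 difference 1.03, adjusted p = 0.256). Klrg1 differed by 2.21 in batch 1 and -0.97 in batch 2, and the test of that difference gave an adjusted p of 0.0838. Standard errors of this size leave room for sizeable changes that these libraries could not detect.

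Type 1 and cytotoxic genes were likewise not called over all 12 libraries. Of 25 tested, 2 were higher and 2 lower at an unadjusted p under 0.05 (7.2% and 5.63% over all genes). The median was 0.48 in batch 1 and -0.51 in batch 2. The fit without day 1 replicates 2 and 6 called 2 lower (Xcl1 and Cxcr3), against 0.533% over all genes. Tbx21, which encodes T-bet, had 7005 to 17416 (median 11313) on day 1 and 5841 to 19798 (median 11359.9) on day 5, a log2 difference of 0.00 (SE 0.28). Gzma, granzyme A, had 68901 to 145581 (median 75488) and 50994 to 332679 (median 70872) (log2 difference 0.24, SE 0.38). Prf1, perforin, differed by 0.68 (SE 0.35, adjusted p = 0.436), with 1.70 in batch 1 and -0.34 in batch 2. Cxcr6, a receptor of tissue-resident lymphocytes, had 4182 to 10185 (median 5063) on day 1 and 1222 to 6340.1 (median 2644) on day 5 (log2 difference -1.08, adjusted p = 0.245). Itgam, the integrin CD11b, had 1304 to 3397 (median 2092) and 3575 to 9063 (median 4725), without overlap (log2 difference 1.28, adjusted p = 0.0788). Cxcr6 and Itgam are not on the type 1 and cytotoxic list. Itgam was 0 in all culture libraries, and the part of neutrophil or other myeloid RNA in its difference was not tested. Neither of the cell cycle lists had a call, and Mki67 had 0 to 678 (median 138) on day 1 and 228 to 1418 (median 345) on day 5 (log2 difference 2.44, SE 1.15, adjusted p = 0.4).

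The difference between days itself differed between batches for 5 genes (0.0423% of those tested, limma interaction term). Mmp9, a secreted protease stored in neutrophil granules, differed by -0.10 in batch 1 and 5.57 in batch 2. Other neutrophil genes had a like split without passing the interaction threshold: S100a9, a subunit of calprotectin, had 0.53 and 4.59 (adjusted p of the difference 0.0838), and Retnlg had 1.09 and 5.90 (0.0973). Over the 20 neutrophil markers the median was 0.23 in batch 1 and 4.15 in batch 2. Csf3r was the only one called over both batches (0.0931% called higher over all genes).

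**Figure D5:**
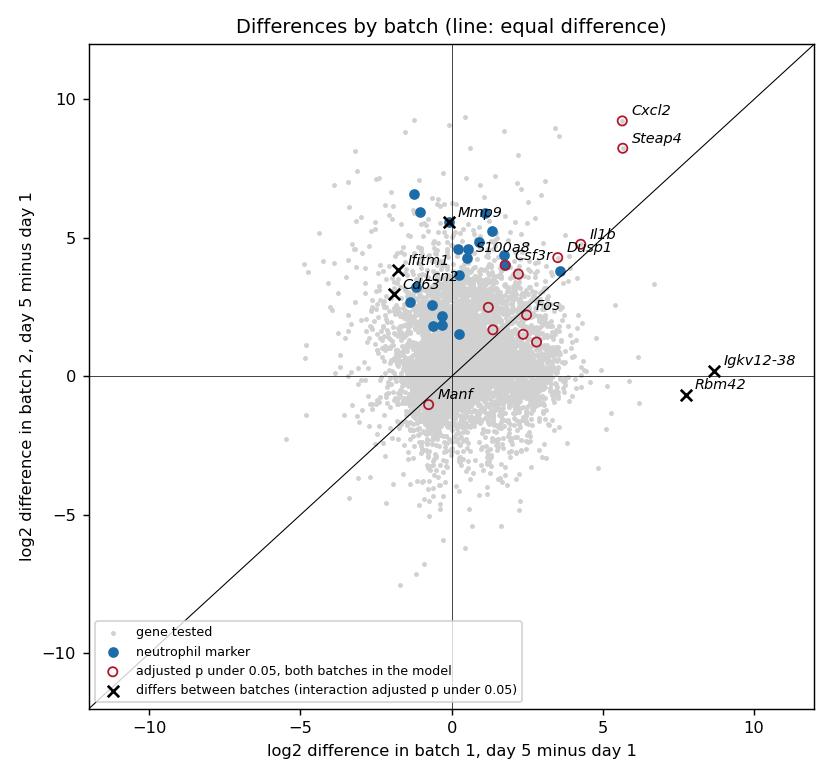
Log2 difference between day 5 and day 1 in batch 1 (x axis) and batch 2 (y axis), each a difference of 3 against 3 libraries, for all genes tested. Filled circles are neutrophil markers, open circles the 12 called genes and crosses the 5 genes whose difference differed between batches; Il1b lies near the line of equal differences, at 4.27 and 4.77, while Mmp9 lies at -0.10 and 5.57.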

How the data were processed

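Per the labels' protocols, poly-A RNA was primed with random hexamers and sequenced paired-end at 150 bp. The submitters' processing notes name fastp, HISAT2 2.0.5 and mm10. The counting tool, annotation, strand setting and gene filter were not given in the sources used here. Normalized counts (signal values) were deposited by the authors for 19945 genes. All values were whole multiples of what 1 read is worth in that library (100% within 0.1 read), which gave back reads for edgeR 4.0.16 and DESeq2 1.42.0 as alternatives.

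The 12 blood libraries were fitted with limma 3.58.1 in R 4.3.3 (lmFit, eBayes with trend and robust) on log2(value + 1) with the batch as covariate. A gene was tested where 6 or more of the 12 libraries reached a value of 10 (11813 genes). Tests were two-sided with Benjamini-Hochberg adjustment at 0.05, and folds are on the log2(value + 1) scale. The pipeline was tested on simulated data. Other settings were the pseudocount, filter, scaling, tool, batch term, replicate block, library weights, all 23 libraries, single batches and libraries left out.

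The comparison and the 44 gene lists were chosen with earlier results of these data known. The text names the largest rises and falls past the threshold, up to 4 called genes a list and a panel of 40 genes. Of the panel 37 were in the table and 35 tested, and Areg, Il13 and Ly6c2 were not analysed here; 1 panel gene is not reported. Genes outside that rule were named after their values were seen: uncalled list members, and genes that differed between batches. Symbols were matched to GENCODE M21 (19931 of 19945).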

Additional observations from a re-analysis of the deposited data

Results flagged for a closer look

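In 10 of 110 groups of 6 libraries, 1 library lay far from the other 5 (Dixon's test at the 95% level). Chance alone marks about 1 in 20 groups. Of the 10, 7 were day 1 replicate 2. There, Eomes was 219.8, against 1089 to 2201 in the other 5 libraries. Mki67 was 0 in day 1 replicate 2, against 65.9 to 678 in the other 5 libraries. Cd79a was 8486 in day 1 replicate 2, against 17364 to 23178 in the other 5 libraries. Itga2b was 594201 in day 1 replicate 2, against 17946 to 48996 in the other 5 libraries. In that library platelet markers took 7.46% against 0.711 to 1.19% in the others, B cell markers 0.132% against 0.481 to 0.737% and dendritic cell markers 0.0469% against 0.137 to 0.181%.

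The other 3 were in 3 different libraries. Gzma was 145581 in day 1 replicate 3, against 68901 to 82535 in the other 5 libraries. S1pr1 was 7029 in day 1 replicate 5, against 5497 to 5811 in the other 5 libraries. Dusp1 was 12216 in day 5 replicate 5, against 28832 to 47072 in the other 5 libraries.

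For 5 genes the log2 difference between the days was not the same in the batches (limma interaction term, 6 libraries in each batch). Mmp9 differed by -0.10 in batch 1 and 5.57 in batch 2, a difference of 5.67 (adjusted p = 0.0382). Ifitm1 differed by -1.77 in batch 1 and 3.84 in batch 2, a difference of 5.60 (adjusted p = 0.0452). Cd63 differed by -1.91 in batch 1 and 2.96 in batch 2, a difference of 4.87 (adjusted p = 0.0382). Rbm42 differed by 7.74 in batch 1 and -0.66 in batch 2, a difference of -8.40 (adjusted p = 0.0382). Igkv12-38 differed by 8.69 in batch 1 and 0.20 in batch 2, a difference of -8.48 (adjusted p = 0.0382). Rbm42 and Igkv12-38 had day 1 libraries at 0, where the pseudocount of 1 sets the fold.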

How the results depend on the processing

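With all 12 libraries, 11 genes were higher and 1 lower. The higher count moved by over 1.5 times with edgeR (3 with TMM, 3 with the deposited factors), DESeq2 (170, with 8362 genes given an adjusted p), library quality weights (762), without day 1 replicates 2 and 6 (148, or 77 by edgeR, added after seeing the data), batch 1 only (1), batch 2 only (28) and single libraries left out (3 to 26). The lower count was 0 with no filter, equal library totals (with or without platelet, red cell and mitochondrial genes), edgeR by either scaling, all 23 libraries, no batch term and batch 1 only, 3 in batch 2 only, 198 with DESeq2, 461 with weights, 63 without day 1 replicates 2 and 6 (56 by edgeR) and 0 to 3 with single libraries left out. The cause was not tested. With the replicate block, 4 were higher and 0 lower. Same-numbered libraries had correlations of -0.157 to 0.104, and 3 of 6 matched their own number best. With only 3 libraries per batch and day, these values cannot tell whether the numbers pair the libraries. Over 45 named genes, 1122 of 1348 values kept direction and side of the threshold, 137 lost a call and 28 gained 1. The other 61 changed sign, in 15 genes that were called neither with all 12 libraries nor in those fits. The log2 differences of these genes with all 12 libraries were Ccr2 0.02, Cd79a 0.67, Gzma 0.24, Gzmb 0.36, Ifng 0.54, Il1rl1 1.06, Il2ra -0.08, Il7r 0.77, Itga2b -0.70, Klrg1 0.62, Ncr1 0.07, Prf1 0.68, Rora 0.93, S1pr5 0.24 and Tbx21 -0.00296. In batch 2 only, the changed values were Ccr2 -0.46, Cd79a -0.17, Gzma -0.55, Gzmb -0.56, Ifng -0.54, Klrg1 -0.97, Ncr1 -0.63, Prf1 -0.34 and S1pr5 -0.52. In batch 1 only, they were Il2ra 0.22, Il7r -0.34 and Tbx21 0.56. Without day 1 replicates 2 and 6, they were Ccr2 -0.55, Ifng -0.0324, Il1rl1 -0.74, Itga2b 0.11, Ncr1 -0.0759, Rora -0.36 and Tbx21 0.23. By edgeR without them, they were Ccr2 -0.60, Ifng -0.23, Il1rl1 -0.73, Itga2b 0.15, Ncr1 -0.12, Rora -0.42 and Tbx21 0.17. With library weights, they were Ccr2 -0.27, Il1rl1 -0.60, Il7r -0.10, Itga2b 0.14, Rora -0.28 and Tbx21 0.37. With edgeR and TMM, they were Ccr2 -0.19 and Il1rl1 -0.14. With edgeR and the deposited factors, they were Ccr2 -0.18 and Il1rl1 -0.12. With DESeq2, it was Ccr2 -0.19. With equal library totals, they were Il2ra 0.17 and Tbx21 0.25. With equal totals less platelet, red cell and mitochondrial genes, they were Il2ra 0.14 and Tbx21 0.22. With single libraries left out the values ran as Ccr2 -0.35 to 0.23, Gzma -0.0354 to 0.39, Il1rl1 -0.0689 to 1.64, Il2ra -0.48 to 0.26, Ncr1 -0.12 to 0.20 and Tbx21 -0.15 to 0.23. Equal library totals moved the all-gene median from 0.16 to 0.41. Depth was lowest in batch 1, and low day 1 levels (Cxcl2, 19 reads) limit those folds.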

Other observations

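Among uncalled genes named after their values were seen, every day 5 library was above every day 1 library for Lrg1, a glycoprotein of neutrophils and liver, at 573 to 1504 on day 1 and 2068 to 56453 on day 5 (adjusted p = 0.108), and for C5ar1, the receptor for complement C5a, at 115 to 1638 and 1897 to 17182 (adjusted p = 0.147). The reverse order was seen for Gpx1, a glutathione peroxidase, at 58707 to 93042 and 14597 to 43935 (adjusted p = 0.132), for Lxn, a carboxypeptidase inhibitor, at 741 to 1115 and 250.3 to 629.5 (adjusted p = 0.0656), and for Spp1, osteopontin, at 575 to 7068 and 257 to 482 (adjusted p = 0.202). On day 5, Lrg1 was 2068 to 2573 in batch 1 and 15033 to 56453 in batch 2. C5ar1 was 1897 to 2109 and 7654 to 17182. The part of neutrophil RNA in the Lrg1 and C5ar1 rises was not tested.

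Survival genes had differing values, without a call. Mcl1 had 3955 to 7743 (median 5234) on day 1 and 5530.5 to 13673 (median 8819) on day 5 (adjusted p = 0.159). Bcl2l1 had 4368 to 34506 (median 10905) on day 1 and 3079 to 6282 (median 4011) on day 5 (adjusted p = 0.286). Bcl2l1 encodes BCL-XL, which is also abundant in platelets and red cell precursors, and their part in its level was not tested. Of genes in TGF-beta signalling, Tgfbr2 had 1114 to 2791 on day 1 and 1616 to 4468 on day 5 (adjusted p = 0.153, and 0.0291 without day 1 replicates 2 and 6).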
